A study of Mus musculus with 8 samples.

Results

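The enzymes that break down the aromatic amino acids tryptophan and tyrosine were followed in mouse liver, where 9 of 9 genes chosen by name were present in the expression table and 9 of 9 passed the filter on low values, out of 14390 genes tested and 24674 rows with a gene symbol. The kynurenine branch held 5 of them (Tdo2, Afmid, Kmo, Kynu and Haao) and the tyrosine branch held 4 (Hpd, Hgd, Gstz1 and Fah). In the liver, dietary tryptophan that is not used for protein is mostly opened and trimmed along the kynurenine pathway, which ends either in a precursor of NAD or, by way of glutaryl-CoA, in acetyl-CoA. Phenylalanine is first hydroxylated to tyrosine, tyrosine loses its amino group to become hydroxyphenylpyruvate, and the tyrosine branch then converts this in a short chain of reactions to fumarate and acetoacetate. Inherited loss of some human enzymes of the tyrosine branch causes tyrosinaemias and alkaptonuria.

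Liver RNA was sequenced from 8 female mice. The 4 animals of the WT group were labelled wild type, and their genotype label names no Khdc3-null ancestor. The 4 animals of the F2_outcross group were genetically wild type as well, and differed in descent, since their maternal grandmother lacked Khdc3, a gene known for its role in the oocyte and early embryo. By the labels no animal in either group carried the null allele, so the comparison as labelled concerns ancestry. Other genetic differences between the groups were not tested. Strain, age, litter and dam were not given in the sources used here, and no label said that animals of a group came from separate litters, so each p-value reflects only the spread among these 8 livers.

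Each library held between 27855142 and 35602558 reads on rows with a symbol (WT 3 and WT 1, with numbers standing for replicates). The labels name hepatocytes as the cell type, and the 9 hepatocyte markers in the table (Alb and Apob among them) summed to between 3444380 and 4873170 normalized reads per library. Kupffer cell markers were also present in every library, with sums of 16208 to 42076, so the samples contained other liver cells. In such bulk tissue, fewer cells of a type and less RNA per cell cannot be told apart. WT replicate 2 stood apart from the other libraries. It received the lowest weight of the 8 when limma estimated library weights (0.348), and 1.22% of its reads fell on rows without a symbol, against 0.611% to 0.770% in the other libraries. It was the highest of the 8 libraries for 5 of the 9 enzymes, compared with 18.2% of all genes tested. Results of the 9 enzymes, and of some other genes, are also given without it.

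No enzyme of either branch passed the test for a difference between the groups. By limma with Benjamini-Hochberg adjustment over all genes, 0 of 9 enzymes passed the threshold of 0.05, against 2.66% of all genes tested. With voom on the recovered reads the count was also 0 of 9, against 2.43% of all genes. At an unadjusted p under 0.05 there was 1 of 9 (Kmo), against 21.1% of all genes, and 0 of 9 had groups that did not overlap, against 12.0% of all genes. The log2 fold change of F2_outcross over WT was positive for 8 of the 9, with a median of 0.24, whereas 48.9% of all genes tested had a positive value and their median was -0.01. WT replicate 2 was the highest of the 8 libraries for 5 of the 9, so leaving it out by itself raises the fold changes of those 5. Without it the value was positive for 9 of 9, with 1 call (Afmid), against 7.55% of all genes called in that fit. The count at an unadjusted p under 0.05 then became 4 of 9 (Afmid, Hpd, Hgd and Kmo), against 26.3% of all genes.

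**Figure D1:**
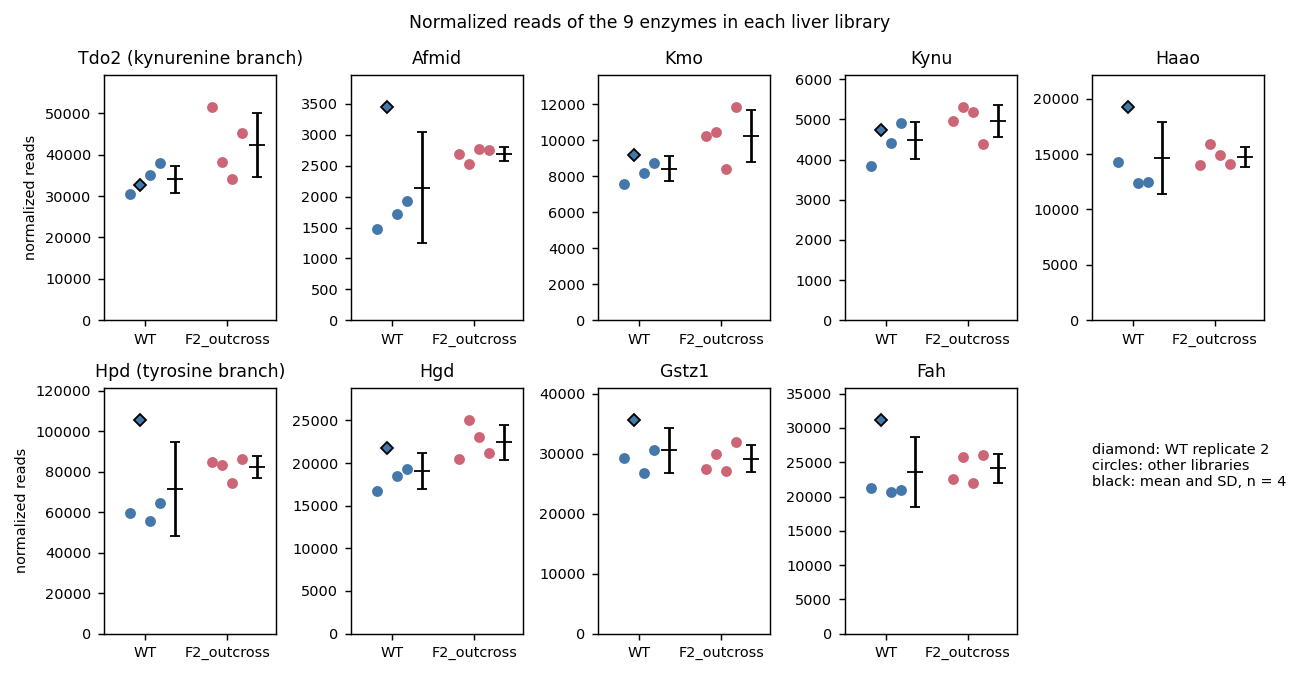
Normalized reads (vertical axes, starting at 0) of the 9 enzymes in the 4 WT and 4 F2_outcross libraries, with the 5 kynurenine branch genes in the upper row and the 4 tyrosine branch genes in the lower row. Points are libraries, the diamond is WT replicate 2, and black marks are the mean and SD with n = 4. The diamond is the highest point for Afmid, Haao, Hpd, Gstz1 and Fah, and the groups overlap for all 9 genes.

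Tdo2 encodes tryptophan dioxygenase, the liver enzyme that opens the indole ring and commits tryptophan to the pathway (chromosome 3, 81957090 to 81976202, minus strand, GRCm38, GENCODE annotation). It had 30429, 32593, 35149 and 37918 normalized reads in WT replicates 1 to 4, and 51622, 38136, 34051 and 45241 in F2_outcross replicates 1 to 4. In F2_outcross 3 of 4 livers were above every WT liver, and F2_outcross replicate 3 lay among the WT values. The means were 34022 ± 3236 and 42262 ± 7766 (SD, n = 4 each), a ratio of 1.24. The log2 fold change of 0.30 ± 0.16 (SE, 95% interval -0.04 to 0.64) did not pass limma's test (adjusted p = 0.297). Of the 9 enzymes, Tdo2 alone had a lower value in WT replicate 2 than the mean of the other WT livers, with a ratio of 0.945, and without that library its log2 fold change was 0.28 (adjusted p = 0.306).

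Afmid encodes arylformamidase, which removes the formyl group from N-formylkynurenine to give kynurenine (chromosome 11, 117825924 to 117839908, plus strand). Its WT values were 1485, 3458, 1727 and 1922 normalized reads, and its F2_outcross values were 2691, 2532, 2776 and 2757. WT replicate 2 was the highest of the 8 libraries, at 2.02 times the mean of the other WT livers, and those other 3 WT livers were below all 4 F2_outcross livers. With all 8 libraries the log2 fold change was 0.40 ± 0.21 (SE, 95% interval -0.04 to 0.85, limma adjusted p = 0.285). Without WT replicate 2 it was 0.66 ± 0.10, with an adjusted p of 0.00814, and with library weights it was 0.57, with an adjusted p of 0.0242, where 11.9% of all genes passed. Of the 8 fits that each left out 1 library, only the one without WT replicate 2 called Afmid. The start of Afmid overlaps the thymidine kinase gene Tk1 on the opposite strand over 83 exonic bases, and whether the counter used strand is not given in the sources used here. For Tk1 itself the log2 fold change was 0.29 and its adjusted p 0.295. A predicted model on the same strand shares 1566 exonic bases with Afmid, and it had a mean of 4.70 normalized reads in WT and 7.28 in F2_outcross.

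Kmo encodes kynurenine monooxygenase, a flavoprotein of the outer mitochondrial membrane that hydroxylates kynurenine (chromosome 1, 175620381 to 175662116, plus strand). It had 7585, 9201, 8193 and 8768 normalized reads in WT, and 10229.8, 10454, 8414 and 11879.8 in F2_outcross. All F2_outcross livers except replicate 3 were above the 4 WT livers. The log2 fold change was 0.27 ± 0.12 (95% interval 0.01 to 0.54), with an unadjusted p of 0.0464 and a limma adjusted p of 0.227, and 0.32 ± 0.12 without WT replicate 2 (adjusted p = 0.136). The Kmo locus overlaps Fh1, the gene of the citric acid cycle enzyme fumarate hydratase, on the opposite strand over 5255 bases, with 0 bases shared between exons. Fh1, named after its values were seen, had 4354 ± 193 normalized reads in WT and 7421 ± 602 in F2_outcross (SD, n = 4 each), and it rose by 0.77 on the log2 scale (adjusted p = 0.00271). Whether reads of Fh1 contributed to the Kmo values was not tested.

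Kynu encodes kynureninase, which splits hydroxykynurenine into hydroxyanthranilate and alanine (chromosome 2, 43555329 to 43682715, plus strand). It had 3847, 4726, 4424 and 4916 normalized reads in WT, and 4948, 5319, 5189.7 and 4399 in F2_outcross. The F2_outcross livers other than replicate 4 were above all WT livers. The log2 fold change was 0.15 ± 0.11 (95% interval -0.09 to 0.39, limma adjusted p = 0.459), and 0.18 without WT replicate 2 (adjusted p = 0.328).

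Haao encodes hydroxyanthranilate dioxygenase, whose unstable product either closes to quinolinate, the precursor of NAD, or is decarboxylated (chromosome 17, 83831156 to 83847963, minus strand). Its values were 14299, 19282, 12401 and 12460 normalized reads in WT, and 13986, 15918, 14871 and 14056 in F2_outcross. The F2_outcross livers lay inside the WT range. The group means were 14610.5 ± 3236 and 14708 ± 901 (SD, n = 4 each), and the log2 fold change was 0.03 ± 0.15 (95% interval -0.29 to 0.35, limma adjusted p = 0.923). Without WT replicate 2, which was 1.48 times the mean of the other WT livers, it was 0.17 ± 0.10 (adjusted p = 0.318).

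Hpd encodes hydroxyphenylpyruvate dioxygenase, the entry to the tyrosine branch (chromosome 5, 123171807 to 123182727, minus strand), and Hgd encodes homogentisate dioxygenase, which opens the aromatic ring in the next step (chromosome 16, 37580153 to 37632020, plus strand). For Hpd and Hgd the log2 fold changes were 0.25 and 0.24 with all 8 libraries, and 0.46 and 0.30 without WT replicate 2. The 250 bases before the RefSeq start site of each gene are shown because these consecutive enzymes differ in the composition of their upstream sequences. Both are written 5′ to 3′ on the gene's own strand, from RefSeq on GRCm38.p6, at chr5:123182724-123182973 for Hpd and chr16:37579903-37580152 for Hgd. Capitals mark matches, on either strand, to 3 of the searched motifs. These were the TATA box (TATAAA), the CCAAT box, and a C/EBP pattern (TTGCNNAA, in which N is any base).
Hpd: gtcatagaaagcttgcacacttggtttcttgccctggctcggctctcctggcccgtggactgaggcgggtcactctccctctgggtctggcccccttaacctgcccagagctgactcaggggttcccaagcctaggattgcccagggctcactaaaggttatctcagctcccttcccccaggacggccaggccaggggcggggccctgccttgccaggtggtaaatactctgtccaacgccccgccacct
Hgd: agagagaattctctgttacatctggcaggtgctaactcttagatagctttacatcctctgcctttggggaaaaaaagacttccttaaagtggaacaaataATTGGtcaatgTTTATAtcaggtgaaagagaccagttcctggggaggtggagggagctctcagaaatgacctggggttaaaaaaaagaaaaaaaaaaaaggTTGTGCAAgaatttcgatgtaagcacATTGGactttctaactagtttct
The Hpd stretch was 62.8% G and C with 7 CG pairs and held none of the 3 motifs, and the Hgd stretch was 38.8% G and C with 1 CG pair. Counted from the start site, the TATAAA match in Hgd began at -139, the CCAAT matches began at -150 and -23, and the TTGCNNAA match began at -49, all read on the opposite strand. A second TTGCNNAA match of Hgd, at 15 after the start, lies past the printed stretch. Over 32544 different RefSeq windows of 300 bases, from 250 before to 50 after a start, 13.6% held TATAAA, 37.4% held CCAAT and 10.8% held TTGCNNAA. RefSeq windows were found for 8 of the 9 enzymes. In those windows TATAAA also matched in Tdo2, and CCAAT matched in Tdo2 and Gstz1. The pattern TGTTCT, a glucocorticoid receptor half-site, matched in Kmo and Haao, and in 18.9% of all windows. The Kmo window (chr1:175631943-175632242) lies inside the GENCODE gene, downstream of its start at 175620381. GTTAAT, an HNF1 half-site, matched in Haao, and in 7.13% of all windows. An HNF4 site (CAAAGTCCA), an E-box (CACGTG) and a D-box (TTATGTAA) matched in 0 of the 8. A match describes letters in a window and not a bound site.

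Hpd had the most reads of the 9 genes, with 59589, 105707, 55704 and 64697 normalized reads in WT and 85001, 83402, 74550 and 86254 in F2_outcross. WT replicate 2 was the highest library, at 1.76 times the mean of the other WT livers, and the other 3 WT livers were below all 4 F2_outcross livers. Its log2 fold change was 0.25 ± 0.21 (95% interval -0.19 to 0.70, limma adjusted p = 0.520). It was 0.46 ± 0.14 without WT replicate 2 (adjusted p = 0.0757). Hpd lies inside Psmd9, a proteasome assembly gene on the opposite strand, with 0 bases shared between exons. Psmd9 had 1059 ± 88.9 normalized reads in WT and 1103 ± 189 in F2_outcross (SD, n = 4 each, limma adjusted p = 0.865).

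Hgd had 16734, 21745, 18489 and 19265 normalized reads in WT, and 20497, 25063, 23001 and 21155 in F2_outcross. F2_outcross replicates 2 and 3 were above every WT liver, and the other two lay below WT replicate 2 only. The means were 19058 ± 2081 and 22429 ± 2051 (SD, n = 4 each), with a log2 fold change of 0.24 ± 0.13 (95% interval -0.04 to 0.51, limma adjusted p = 0.301). It became 0.30 ± 0.12 without WT replicate 2 (adjusted p = 0.129).

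Gstz1 encodes maleylacetoacetate isomerase, a member of the glutathione transferase family (chromosome 12, 87147165 to 87164723, plus strand). Its values were 29317, 35651, 26789.5 and 30595 normalized reads in WT, and 27443, 29946, 27204 and 31940.4 in F2_outcross. The F2_outcross livers lay inside the WT range, and it was the 1 enzyme of the 9 with a negative log2 fold change, at -0.07 ± 0.13 (95% interval -0.35 to 0.22, limma adjusted p = 0.816). That value was 0.01 ± 0.12 without WT replicate 2 (adjusted p = 0.967). Gstz1 shares 465 exonic bases with Pomt2 on the opposite strand, and Pomt2 had 708 ± 64.6 normalized reads in WT and 868 ± 55.5 in F2_outcross (SD, n = 4 each, limma adjusted p = 0.133).

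Fah encodes fumarylacetoacetate hydrolase, the final step, which releases fumarate and acetoacetate (chromosome 7, 84585159 to 84606722, minus strand). It had 21271, 31181, 20721 and 20928 normalized reads in WT, and 22548, 25806, 21995 and 26106 in F2_outcross. The WT livers other than replicate 2 lay close together and below all 4 F2_outcross livers, while WT replicate 2 was above them all. Its log2 fold change was 0.05 ± 0.15 (95% interval -0.28 to 0.39, limma adjusted p = 0.873). Leaving out WT replicate 2 gave 0.20 ± 0.11 (adjusted p = 0.292). In all, 4 of 9 enzymes (Afmid, Hpd, Hgd and Fah) had every F2_outcross liver above the 3 WT livers left without WT replicate 2, and 23.3% of all genes tested had groups apart in either direction in that comparison.

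**Figure D2:**
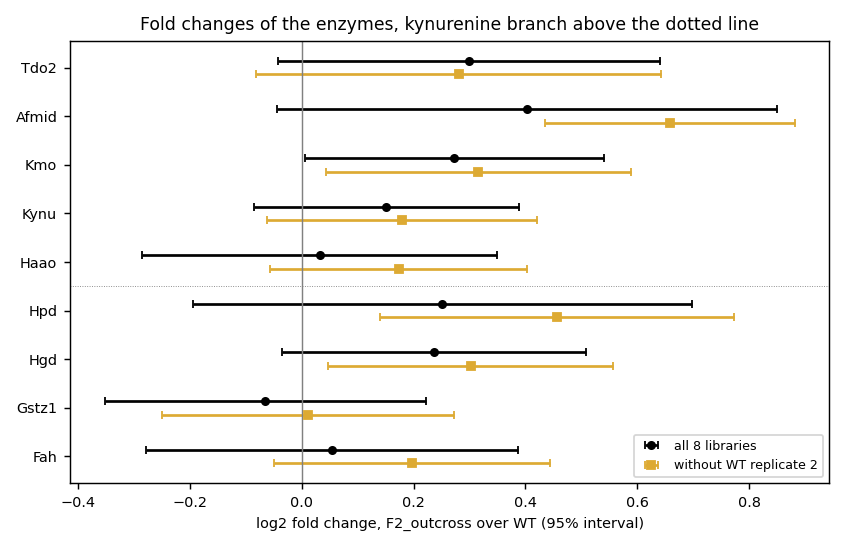
Log2 fold change of F2_outcross over WT (horizontal axis) with its 95% limma interval for each enzyme, with all 8 libraries (black circles) and without WT replicate 2 (yellow squares). With all libraries the interval excludes 0 for Kmo alone, from 0.01 to 0.54. Without WT replicate 2 it excludes 0 for 4 genes, Afmid, Kmo, Hpd and Hgd, and the value of Afmid moves from 0.40 to 0.66.

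Averaged over its genes, the kynurenine branch had a log2 fold change of 0.23 and the tyrosine branch one of 0.12, a difference of 0.11. Leaving out 1 library moved the tyrosine branch mean to 0.24 without WT replicate 2, to 0.06 without WT replicate 3 and to 0.07 without WT replicate 1, and quantile scaling gave 0.04. The kynurenine branch mean was 0.32 without WT replicate 2. No test was made of these averages, since their genes were chosen by name. Centred on the 8 libraries, the kynurenine branch stood at -0.31, 0.15, -0.20 and -0.10 on the log2 scale in WT replicates 1 to 4, and at 0.17, 0.12, 0.03 and 0.14 in F2_outcross replicates 1 to 4. The tyrosine branch stood at -0.20, 0.31, -0.23 and -0.11 in WT, and at -0.00, 0.14, -0.02 and 0.12 in F2_outcross. In both branches the 4 F2_outcross livers lay above 3 of the WT livers. For the tyrosine branch all 4 were below WT replicate 2, and for the kynurenine branch F2_outcross replicate 1 was slightly above it.

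Within a library, the kynurenine value minus the tyrosine value ran from -0.15 (WT replicate 2) to 0.17 (F2_outcross replicate 1). Its group means were -0.06 ± 0.09 in WT and 0.06 ± 0.08 in F2_outcross (SD, n = 4 each). Centring makes these means equal and opposite. When each library was left out in turn, the branch difference ranged from 0.08 to 0.14. It was 0.08 without WT replicate 2 and also without F2_outcross replicate 1.

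**Figure D3:**
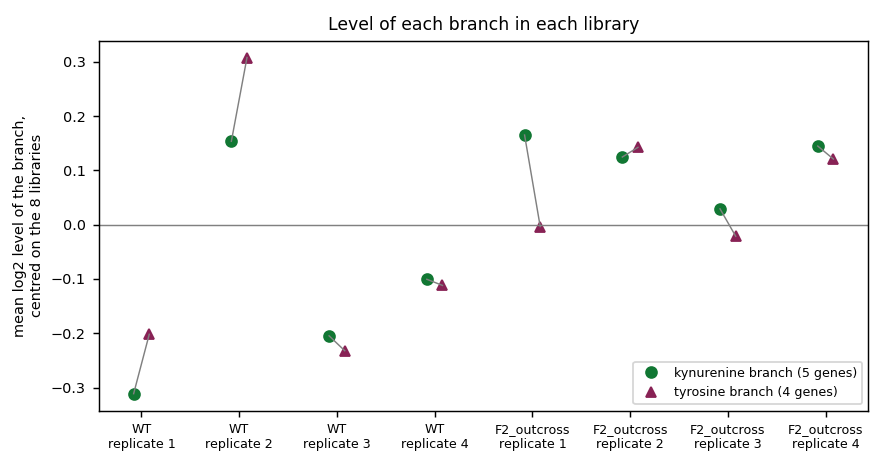
Mean log2 level of the 5 kynurenine branch genes (green circles) and the 4 tyrosine branch genes (purple triangles) in each library, each gene centred on its mean over the 8 libraries (vertical axis, log2). A grey line joins the pair within a library. The highest tyrosine value, 0.31, is in WT replicate 2, and the lowest kynurenine value, -0.31, is in WT replicate 1.

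Together the 9 enzymes took 0.666%, 0.885%, 0.631% and 0.727% of the reads with a symbol in WT replicates 1 to 4, and between 0.789% and 0.823% in the F2_outcross livers. For this total the F2_outcross livers lay inside the WT range. The kynurenine branch took 0.208%, 0.233%, 0.213% and 0.238% of reads in WT, and 0.287%, 0.241%, 0.244% and 0.261% in F2_outcross, so that all 4 F2_outcross livers were above all 4 WT livers. Tdo2 was the largest part of this sum in every library, and no test was made of the sum. In normalized reads the sums of the kynurenine branch overlapped, at 57645 to 69259.3 in WT and 65300.5 to 83476.5 in F2_outcross. The tyrosine branch took 0.418% to 0.653% in WT and 0.535% to 0.551% in F2_outcross, and its groups overlapped. The coefficient of variation between animals had a median over the 9 enzymes of 12.2% in WT and 8.20% in F2_outcross, and of 7.52% in WT without replicate 2. Over all genes tested these medians were 14.5%, 13.5% and 10.3%. It was larger in WT for 7 of 9 enzymes with all libraries and for 4 of 9 without WT replicate 2, while 52.2% of all genes had a larger value in WT with all libraries.

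Per kilobase of exonic bases, Hpd was the most abundant of the 9, with 26177 to 49674 normalized reads per kb over the 8 libraries. Fah (9342 to 14058 reads per kb) and Tdo2 (7840.4 to 13301) came next and overlapped. Hgd, Gstz1, Haao, Kmo, Kynu and Afmid followed in that order, down to 420 to 977 reads per kb for Afmid. Neighbours whose ranges overlapped were Fah and Tdo2, Tdo2 and Hgd, Hgd and Gstz1, and Kynu and Afmid, but within single libraries Hgd was above Gstz1 in 8 of 8, Tdo2 above Hgd in 7, and Fah above Tdo2 and Kynu above Afmid in 6. Within the kynurenine branch the level per length was highest for Tdo2. Per kb of the longest coding transcript Haao came close to it, with means of 11117 for Tdo2 and 10615 for Haao. The order depends on the length used. Per kilobase of the longest coding transcript, Gstz1 moved from rank 5 to rank 2 and Tdo2 from rank 3 to rank 5, and Hpd stayed first.

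**Figure D4:**
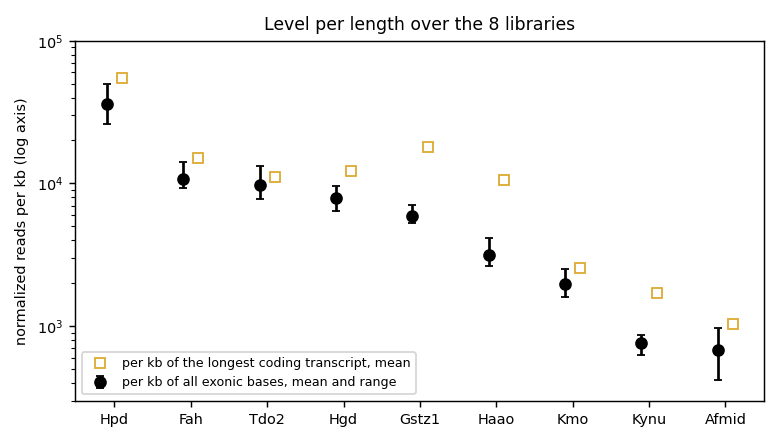
Normalized reads per kilobase (log axis) of the 9 enzymes. Black circles give the mean per kb of all exonic bases with the lowest and highest of the 8 libraries, and open yellow squares give the mean per kb of the longest coding transcript. Hpd is highest by both lengths and Afmid is lowest by both.

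The other genes of these pathways were taken from lists of 44 genes, of which 39 were tested. In this set 1 gene rose (Acmsd), 0 fell, 10 had an unadjusted p under 0.05 and 3 had groups that did not overlap, Slc16a10 and Slc7a8 among them. Over all genes tested, these shares were 2.66% called in either direction, 21.1% at the unadjusted threshold and 12.0% without overlap. Their median log2 fold change was 0.03. Among 8 tested enzymes of the kynurenine pathway outside the 5 above, 1 rose and 7 did not pass.

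Acmsd encodes the decarboxylase that draws the Haao product away from quinolinate and towards glutaryl-CoA. Its values were 539, 635, 964 and 1091 normalized reads in WT, and 2507, 2295, 2277 and 964 in F2_outcross. The first 3 F2_outcross livers were above every WT liver, and F2_outcross replicate 4 lay inside the WT range. Acmsd rose by 1.28 ± 0.30 on the log2 scale (SE, 95% interval 0.64 to 1.93, limma adjusted p = 0.0415), with means of 807 ± 262 and 2011 ± 705 (SD, n = 4 each). The call was also lost with quantile scaling (adjusted p = 0.0503) and with robust moderation (adjusted p = 0.112). It was lost in 7 of the 8 fits that left out 1 library, each except the one without F2_outcross replicate 4, with adjusted p from 0.00442 to 0.120. Without WT replicate 2 the log2 fold change was 1.19 (adjusted p = 0.0525).

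Kyat3, a kynurenine aminotransferase that makes kynurenic acid, had 0.46 as its log2 fold change (adjusted p = 0.149), and Ido2, a second enzyme able to open the indole ring, had 0.33 (adjusted p = 0.212). Aadat, another aminotransferase, had 0.14 (adjusted p = 0.592). Qprt, which turns quinolinate into the NAD precursor, had -0.11 (adjusted p = 0.671). None of these 4 passed limma's test. Ido1, the enzyme for the same reaction outside the liver, had 1, 0, 0 and 2 reads in WT and 0 in each F2_outcross library, all under the limit of 3 reads that a count of 0 allows, so no comparison was possible.

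In the NAD end of the pathway 0 of 4 tested genes passed, and 0 of 4 had an unadjusted p under 0.05. Over all genes tested these shares were 2.66% and 21.1%. Among them Nmnat3, Nmnat1 and Nadsyn1, which act after quinolinate, had log2 fold changes of -0.26, 0.16 and 0.12. In the glutaryl-CoA end 0 of 7 passed and 1 had an unadjusted p under 0.05. That gene was Dhtkd1, a subunit of the dehydrogenase for oxoadipate, with 0.36 ± 0.14 (adjusted p = 0.159), and without WT replicate 2 it was 0.48 (adjusted p = 0.0304). Dlst, Gcdh and Acat1 had 0.17, 0.13 and -0.11.

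Phenylalanine and tyrosine entry was measured with 9 genes. Of these, 0 passed limma's test and 3 had an unadjusted p under 0.05, against 2.66% and 21.1% of all genes tested.

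Tat encodes tyrosine aminotransferase, which supplies the substrate of Hpd and is a known glucocorticoid target. It had 27292, 52224, 32974 and 44035 normalized reads in WT, and 48832, 71995, 64121 and 40982 in F2_outcross. The groups overlapped, and the log2 fold change was 0.54 ± 0.23 (adjusted p = 0.208), and 0.69 without WT replicate 2 (adjusted p = 0.0789). Dnajc12, a co-chaperone of the aromatic amino acid hydroxylases, had -0.62 ± 0.19 (adjusted p = 0.0998), and -0.79 without WT replicate 2 (adjusted p = 0.0199). Spr, which makes the cofactor tetrahydrobiopterin, had -0.11 (adjusted p = 0.534).

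**Figure D5:**
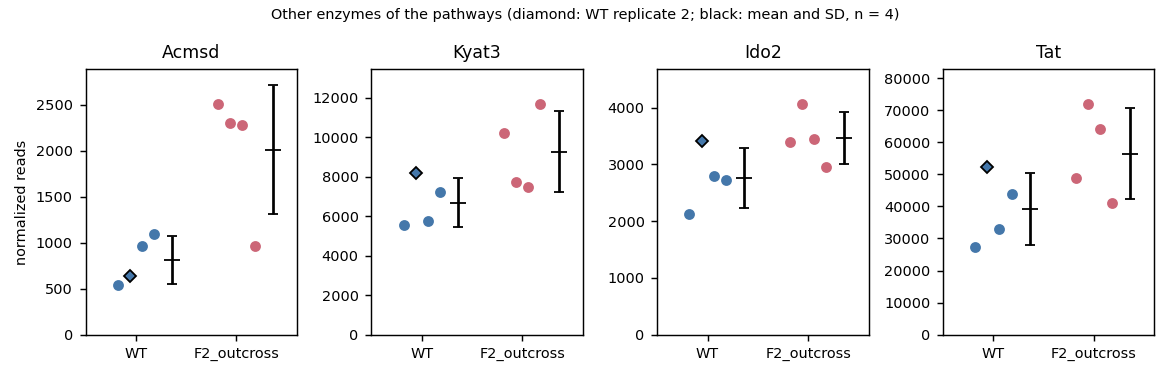
Normalized reads (vertical axes, starting at 0) of Acmsd, Kyat3, Ido2 and Tat in the 4 WT and 4 F2_outcross libraries. Points are libraries, the diamond is WT replicate 2, and black marks are the mean and SD with n = 4. The groups overlap for all 4 genes, and for Acmsd F2_outcross replicate 4, at 964, lies among the WT values while the other F2_outcross livers are above them.

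Carriers of aromatic amino acids gave 0 of 6 calls, 3 unadjusted p under 0.05 and 2 genes whose groups did not overlap, where all genes tested gave 2.66%, 21.1% and 12.0%. Slc16a10, an exporter of aromatic amino acids, had 2850.4 ± 498 normalized reads in WT and 4610.5 ± 1167 in F2_outcross (SD, n = 4 each), a log2 fold change of 0.68 ± 0.17 (adjusted p = 0.0556). Slc7a8, a light chain of neutral amino acid exchange, had 287 ± 42.7 and 205 ± 28.9, a log2 fold change of -0.48 ± 0.15 (adjusted p = 0.0964). Without WT replicate 2 both passed, with adjusted p of 0.0258 and 0.0467. Slc43a1 and Slc3a2 had 0.58 and -0.13 (adjusted p = 0.123 and 0.592). Of 6 tested genes that use tryptophan or tyrosine in other ways, 0 passed and 0 had an unadjusted p under 0.05. Il4i1, Ddc, Maob and Maoa had log2 fold changes of -0.73, -0.48, 0.21 and -0.14.

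Markers of position in the liver lobule and of other cells were counted in the same fit, in which 2.66% of all genes were called. Of 10 periportal markers 3 rose, Sds, Gls2 and Asl, by 0.81, 0.74 and 0.85 on the log2 scale (adjusted p = 0.00255, 0.0274 and 0.0241). The other 7 did not pass. Log2 fold changes were positive for 8 of the 10 and negative for 2, the lowest being -0.31. Cyp2f2 had 0.55 (adjusted p = 0.115), and 0.70 without WT replicate 2 (adjusted p = 0.0263). Sds was called in 8 of the 8 fits that left out 1 library, whereas Gls2 and Asl were each called in 3, with adjusted p up to 0.0730 and 0.0723. The list summed to 194982 to 264146 normalized reads in WT, highest in replicate 2, and to 272002 to 324870 in F2_outcross. Of 10 pericentral markers 1 rose, Slc1a2, by 0.81 (adjusted p = 0.0142), and Lgr5, Axin2 and Rhbg had -0.78, 0.59 and 0.49. Of 12 glucocorticoid-responsive genes 1 rose, Fkbp5, by 1.35 (adjusted p = 0.0228), a call kept in 4 of the 8 fits that left out 1 library (adjusted p up to 0.0690). Whether position in the lobule or glucocorticoid response had a part in the values of the 9 enzymes was not tested.

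Immune cell markers had negative log2 fold changes throughout, in 10 of 10 Kupffer cell markers, 10 of 10 lymphocyte markers and 5 of 5 tested neutrophil markers. The lymphocyte marker Nkg7 fell by 1.10 and the neutrophil marker S100a8 fell by 1.67 on the log2 scale (adjusted p = 0.0438 and 0.0313). Each was called in 2 of the 8 fits that left out 1 library, with adjusted p up to 0.138 and 0.0909, and S100a8 did not pass with voom (adjusted p = 0.0586). Of the 10 Kupffer markers 0 passed and 10 had an unadjusted p under 0.05, against 2.66% and 21.1% of all genes tested. Without WT replicate 2 some Kupffer markers passed limma's test (adjusted p = 0.00599, 0.0125 and 0.0378 among them). That fit called 7.55% of all genes. Kupffer marker sums were 19585 to 42076 in WT, lowest in replicate 2, and 16208 to 23067 in F2_outcross. Erythrocyte markers gave 0 calls among 5, with sums of 9841 to 24225 in WT and 6448 to 16989 in F2_outcross. Endothelial and stellate markers gave 0 calls among 8 each, and of 4 tested cholangiocyte markers Spp1 rose by 1.08 (adjusted p = 0.0247, called in 5 of the 8 fits that left out 1 library). Among hepatocyte markers 0 of 9 passed. None of the kidney or adipocyte markers passed the filter on low values, and adipocyte marker sums were 0.780 to 9.09 normalized reads in WT and 0 to 197 in F2_outcross. Of the adrenal markers only Star passed the filter, with a log2 value of 0.66 for F2_outcross over WT (adjusted p = 0.195). The part of other cell types in the values of the 9 enzymes was not tested.

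Genes whose pattern over the 8 libraries was most like that of Tdo2 were Cd93, Pank3 and Cep85, with root mean square differences of 0.08, 0.08 and 0.09 on the centred log2 scale, against a median of 0.33 over all genes tested. The closest of the other 8 enzymes was Kmo, at 0.15. For Hpd they were Slc22a4, Cyp2d22 and Prr12, each at 0.10 against a median of 0.37, and the closest of the other enzymes was Fah, at 0.15. All were picked for the smallest differences, so values under the median follow from that choice.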

How the data were processed

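Total RNA from 8 livers was extracted with a kit for fatty tissue and made into strand-specific libraries, per the labels. Cutadapt, HISAT2, DESeq2 and build GRCm38 appear in the submitters' processing notes. Which program counted reads, with which annotation and whether by strand, is not given in the sources used here. The deposited table holds log2 values per gene and library, which the authors made from normalized counts. After undoing the logarithm and an offset of 0.1, 100% of values came to a whole number of steps per library (tolerance 0.001 of a step, growing in proportion above 1000 reads), so each was read as log2(normalized reads + 0.1). Libraries were compared in pairs by chi-square, whose lowest value per degree of freedom was 39.1, and each was counted as 1 replicate.

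Rows without a symbol (395 of 25069) were left out. Genes reaching 10 normalized reads in 4 or more libraries were tested on log2(normalized reads + 1), which understates the change of low genes, with limma 3.58.1 in R 4.3.3 (trend, two-sided, Benjamini-Hochberg over 14390 genes, threshold 0.05) and group as the only term. Every adjusted p is from this fit unless another setting is named. The enzymes and gene lists were chosen with earlier results of these data known. All enzymes were named, with up to 4 genes of smallest p per list and the 3 genes most like Tdo2 and Hpd, leaving out predicted models and pseudogenes. Some genes that this rule or the marker lists select are not reported here. Tf and Th were not used here. Alternatives were other pseudocounts, filters and scalings, robust moderation, library weights, voom on recovered reads, and leaving out each library. Read limits cover counting error only.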

Additional observations from a re-analysis of the deposited data

Results flagged for a closer look

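Among groups of 4 libraries for the 9 enzymes and the 39 other pathway genes tested, 7 of 96 held 1 library far from the other 3, its gap to the nearest being above Dixon's 95% critical share of the group's whole range. Chance alone flags about 1 in 20 such groups. In WT replicate 2, Fah had 31181 normalized reads against 20721 to 21271 in the other WT livers. The same library had 6474 normalized reads of Qprt against 4692 to 4853, and 2511 of Slc3a2 against 1783 to 1905. F2_outcross replicate 4 had 964 normalized reads of Acmsd against 2277 to 2507 in the other F2_outcross livers. F2_outcross replicate 2 had 1959 of Spr against 1837 to 1849. In WT replicate 1 Il4i1 had 38.9 normalized reads against 12.5 to 16.4, and in WT replicate 3 Maoa had 289 against 396 to 417. The causes were not tested.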

How the results depend on the processing

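Over 19 alternatives, Tdo2, Kmo, Kynu, Hgd and Hpd kept a positive fold change and stayed uncalled, and Afmid was called under 2 of them. With library weights, 1709 genes (11.9% of all genes tested), 1 kynurenine branch enzyme and 8 of the 39 other pathway genes were called. Leaving out each library gave 108 to 1077 calls among all genes, 0 to 1 in the kynurenine branch and 0 to 4 among the other pathway genes, the highest each time without WT replicate 2. The fit without WT replicate 2 called 7.55% of all its genes. The other pathway genes gave 2 calls with a mean of at least 50 and 2 with voom, where 386 and 349 genes were called in all. Small values changed sign. With quantile scaling Fah had -0.041 and Haao -0.055, and with upper quartile scaling Haao had -0.0057. Leaving out each library gave Haao -0.039 to 0.17 and Gstz1 -0.13 to 0.011. The cause was not tested. No paired analysis was possible because the labels give no litter, batch or pairing that links animals of the groups. Replicate numbers follow the order of the libraries in the deposited table. With 4 animals per group and all 8 libraries, the enzyme intervals had their lowest bound in Gstz1 (-0.35) and their highest in Afmid (0.85). For each enzyme, differences inside its own interval were not resolved.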
